A study of Mus musculus with 12 samples.

Results

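The genes of endoplasmic reticulum (ER) stress and the unfolded protein response were followed through 12 RNA-seq libraries of immune cells selected from mouse spleen. The set was a named list of 34 genes, and all 34 were found in the neutrophil table (16805 genes) and in the monocyte table (16954 genes). All 34 also passed the filter on low counts, among 13058 tested genes in neutrophils and 13294 in monocytes. The mice were wild type and bore tumors, and cryo-thermal therapy (CTT) is a local treatment that freezes and then heats a tumor. Neutrophils, captured by an antibody to the surface protein Ly6G, came from 3 libraries of untreated tumor-bearing mice (control) and 3 libraries taken 12 h after CTT. Monocytes, captured by an antibody to the chemokine receptor CCR2, were taken 5 days after CTT from mice given CTT alone (3 libraries) or CTT with anti-Ly6G, a neutrophil-depleting antibody (3 libraries). All monocyte groups had therefore received CTT, and the libraries are labelled as biological replicates without the number of mice in each, so that p-values reflect only how these libraries vary. The sources used here do not give the mouse strain, the tumor line or the purity of the selected cells.

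The ER folds secreted and membrane proteins, and when unfolded protein builds up in its lumen 3 sensors in its membrane respond. IRE1 (gene Ern1) splices the mRNA of the transcription factor XBP1, ATF6 is cut in the Golgi to release a transcription factor, and PERK (Eif2ak3) phosphorylates the translation factor eIF2alpha, which slows translation and favors ATF4 and its target CHOP (Ddit3). Their target genes encode chaperones, disulfide isomerases and the machinery that pulls misfolded proteins out of the ER for degradation, and plasma cells, which secrete antibody, are known for running the XBP1 branch at a high level. Gene counts do not show the splicing of Xbp1, the phosphorylation of eIF2alpha or the cleavage of ATF6, so that only transcript abundance is described.

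Some promoters of the set carry the ER stress response element, through which ATF6 and XBP1 are known to act, and the matches are shown because 9 members share it. Promoters (250 bases before to 50 bases after the gene start, RefSeq, GRCm38.p6) were found for 29 of the 34 genes, not for Hyou1, Manf, Ppp1r15b, Atf6 or Derl1. This element, searched on both strands as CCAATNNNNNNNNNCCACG, lay in 9 of the 29 promoters (31%), against 37 of 27025 promoters (0.137%) in the whole table. Hsp90b1 held 2 matches and the other 8 genes held 1 each. The sequences below are written 5′ to 3′ on the strand that reads the element, with 8 bases on each side, and the capitals mark its fixed bases.
Hspa5: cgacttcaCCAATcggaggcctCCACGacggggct
Hsp90b1, gene strand: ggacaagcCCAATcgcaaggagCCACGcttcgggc
Hsp90b1, other strand: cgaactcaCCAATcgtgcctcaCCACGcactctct
Dnajc3: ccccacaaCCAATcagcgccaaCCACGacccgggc
Creld2: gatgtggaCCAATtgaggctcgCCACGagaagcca
Calr: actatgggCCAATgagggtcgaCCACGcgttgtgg
Canx: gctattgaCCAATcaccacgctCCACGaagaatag
Pdia6: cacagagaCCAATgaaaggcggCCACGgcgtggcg
Syvn1: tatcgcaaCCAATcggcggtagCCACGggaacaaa
Derl3: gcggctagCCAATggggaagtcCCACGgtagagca
The Hspa5 stretch, flanks included, is at chr2:34772017-34772051, and its element spans from 65 to 47 bases before the start of the gene. Over the 9 genes the element lay wholly before the start, from 212 bases before it in Hsp90b1 to 26 bases before it in Syvn1. In Creld2, Calr, Derl3 and the second Hsp90b1 match it is read from the strand opposite to the gene.

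A shorter form of the element, searched as ATTGGNCCACG, lay in the promoters of Herpud1 and Dnajb11 (6.9% of 29, against 0.0444% of all promoters). The CHOP-ATF4 composite element, searched as TGATGNAA, lay in those of Herpud1, Trib3 and Asns (10.3%, against 4.51%). The XBP1-type element TGACGTGG lay in 0 of the 29 (0.714% of all promoters). Both kinds of match are shown for Herpud1, whose promoter held one of each, and for Asns, with the fixed bases in capitals.
Herpud1, shorter element: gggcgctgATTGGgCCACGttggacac
Herpud1, composite element: gtgcgggcTGATGcAAcccgccgt
Asns, composite element: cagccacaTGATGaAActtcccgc
With 8 bases of flank on each side, the Herpud1 stretches are at chr8:94386369-94386395 and chr8:94386309-94386332 and the Asns stretch is at chr6:7693217-7693240. A match is a description of letters, and no protein binding was measured here.

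The libraries held 30942849 to 35956571 counted reads each. Control neutrophil replicate 1 stood apart. Its 14 erythroid markers summed to 16144 CPM (counts scaled to TMM-corrected library totals), against 471 to 2751 CPM in the other 5 neutrophil libraries. For 16 cell cycle genes its sum was 6542 CPM, against 1229 to 1803 CPM. Its 12 B cell markers summed to 3273 CPM against 6729 to 8254 CPM, and it was the lowest control for 15 members (44.1%, against 44.9% of all tested genes), among them Dnajb9, Pdia4, Syvn1, Eif2ak3 and Edem1, and the highest for 18. Transcripts of other cell types were present throughout. In the neutrophil libraries 15 neutrophil markers summed to 4205 to 12995 CPM. In the monocyte libraries the B cell markers summed to 3074 to 5809 CPM, where 9 monocyte markers summed to 3408 to 5740 CPM and 12 red pulp macrophage markers to 8236 to 17625 CPM. In such bulk libraries, fewer cells of a type and less RNA per cell cannot be told apart.

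Levels between genes are compared per gene length. The lectin chaperone calreticulin (Calr) had the highest level in control neutrophils, with 540.0 ± 24.0 FPKM (SD, n = 3, as for all means here), and its lowest group mean was 349 ± 39.7 FPKM, in CTT monocytes. Hspa5, which encodes the ER chaperone BiP, lay between 349 ± 29.3 and 463 ± 91.2 FPKM and overlapped with Calr in each monocyte group. Hsp90b1, the ER Hsp90 protein, lay between 283 ± 32.0 and 341 ± 97.3 FPKM. Ppp1r15a, which encodes the stress-induced phosphatase subunit GADD34 that reverses eIF2alpha phosphorylation, ranged most widely among these, from 633 ± 94.3 FPKM in CTT neutrophils, the highest level of any member, to 102 ± 6.73 FPKM in anti-Ly6G monocytes. The lowest level was that of Trib3, a pseudokinase induced downstream of ATF4, with group means from 0.303 to 0.636 FPKM. The sensors were low too: Ern1 lay between 6.31 and 14.2 FPKM, Eif2ak3 between 19.5 and 24.3 FPKM and Atf6 between 21.2 and 26.9 FPKM.

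**Figure D1:**
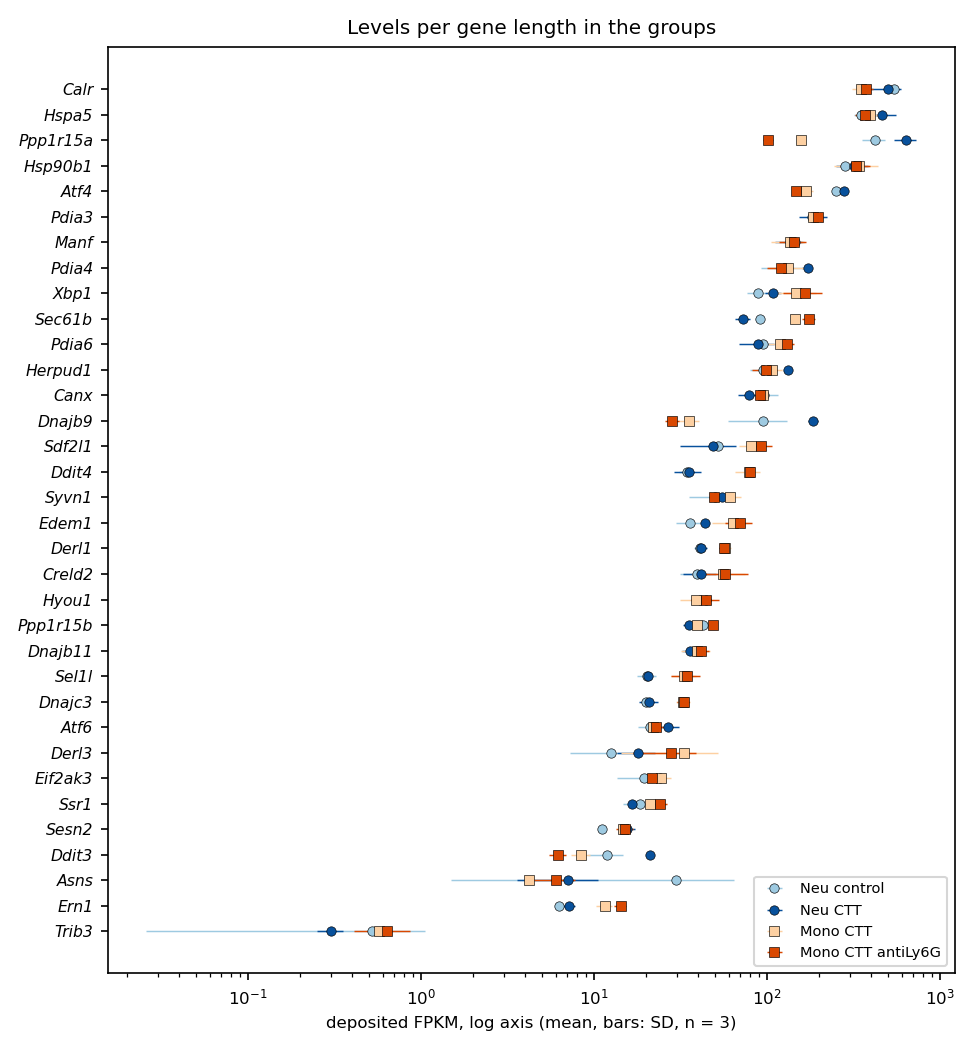
Deposited FPKM (reads per gene length and library total, log axis) of the 34 genes in the 4 groups, with circles for neutrophils and squares for monocytes (points: mean of 3 libraries, bars: SD, cut short toward 0 where the SD nears or exceeds the mean, as for Trib3 and Asns in control neutrophils). Calr, Hspa5, Hsp90b1 and Ppp1r15a are at the top, Trib3 is alone at the bottom, and Dnajb9 and Ppp1r15a stand farthest apart between the neutrophil and the monocyte groups among the high genes.

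The order of levels differed between the neutrophil and monocyte libraries for a few genes. This is a description, since the tables were made separately and no test was run across them. These libraries also differed in capture antibody, treatment and time after CTT, and both held transcripts of other cell types. A difference of cell type cannot be told apart from these. Dnajb9, a BiP cochaperone (ERdj4), had 94.8 ± 35.0 and 185 ± 11.6 FPKM in the neutrophil groups and 35.5 ± 5.00 and 28.3 ± 2.45 FPKM in the monocyte groups, with every neutrophil library above every monocyte library. Ddit3 had 11.9 ± 2.72 and 21.0 ± 0.320 FPKM in neutrophils and 8.43 ± 1.04 and 6.19 ± 0.668 FPKM in monocytes, and the lowest control neutrophil library (9.06 FPKM) lay below the highest CTT monocyte library (9.32 FPKM). Ern1 went the other way, with all 6 monocyte libraries at 10.2 FPKM or above and all 6 neutrophil libraries at 7.86 FPKM or below.

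In neutrophils 12 h after CTT, Ddit3, Dnajb9, Ppp1r15a, Herpud1 and Sesn2 had higher counts in every library than in any control, but none of the 34 members passed the test. In the edgeR quasi-likelihood test, adjusted by the Benjamini-Hochberg method across the whole table, 0 members rose and 0 fell, where 74 of all tested genes rose (0.567%) and 0 fell (0%). At an unadjusted p under 0.05, 10 members (29.4%) were higher and 0 were lower, against 8.28% and 5.74% of all tested genes. In CPM, every CTT library lay above every control library for 11 members (32.4%), against 13.6% of all genes. Of these 11, Eif2ak3 overlapped in FPKM. In 1 member, Sec61b, every CTT library lay below (11% of all genes). DESeq2 called 5 members higher after CTT (14.7%: Dnajb9, Herpud1, Ddit3, Sesn2 and Ppp1r15a), against 3.56% of its 12801 tested genes, and 0 lower, against 0.836%. Limma-voom and limma-trend called 0 members in either direction. The median log2 fold change was 0.13 over the 34 members and −0.02 over all tested genes. Of the members, 22 were positive and 12 negative, where 47.9% of all tested genes were positive. The members' median varied between libraries of a group with an SD of 0.108 on the log2 scale.

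Ddit3, the transcription factor CHOP, had the smallest p of the set in neutrophils. It was counted at 22, 28.6 and 34.5 CPM in control replicates 1, 2 and 3 and at 51.0, 50.9 and 54.3 CPM in the CTT replicates. The lowest CTT library exceeded the highest control, and the CTT libraries lay closer together than the controls (52.1 ± 1.96 against 28.4 ± 6.25 CPM). The log2 fold change was 0.88 (SE 0.18, edgeR adjusted p = 0.122), and DESeq2 gave an adjusted p of 0.0020.

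Dnajb9, a target of the IRE1 and XBP1 branch, had the highest fold change of the set. Its counts were 102, 197 and 219.6 CPM in controls and 319, 366 and 372 CPM after CTT. The groups did not overlap, and control replicate 1 was far below the other controls. The log2 fold change was 1.03 (SE 0.27, edgeR adjusted p = 0.21), a 2.04-fold higher level, and the DESeq2 adjusted p was 0.0174.

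Without control replicate 1, edgeR called 2 members higher after CTT, Dnajb9 (log2 fold change 0.76, adjusted p = 0.0132) and Ddit3 (0.73, adjusted p = 0.0196), and 0 lower. That is 5.88% of the members, against 1.93% of the 13295 genes tested that rose (257 genes) and 0.233% that fell (31 genes). In each of the other 5 fits that left out a library, 0 members were called.

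The remaining members called by DESeq2 were Ppp1r15a, Herpud1 and Sesn2. Ppp1r15a was counted at 802, 1018 and 1053 CPM in controls and at 1401, 1318 and 1812 CPM after CTT. These groups did not overlap (log2 fold change 0.66, SE 0.17, edgeR adjusted p = 0.209). Herpud1, a membrane protein of the degradation complex, was at 157, 197 and 211 CPM and at 269, 263 and 294 CPM (0.55, SE 0.14, edgeR adjusted p = 0.198). Sesn2, which encodes the stress-induced inhibitor of mTORC1 sestrin 2, was at 30.6, 28.4 and 27.9 CPM and at 38.3, 39.9 and 48.7 CPM (0.55, SE 0.14, edgeR adjusted p = 0.207). In both genes each CTT library was again above each control. Ppp1r15b, which encodes the constitutive alternative subunit CReP, did not share this order: it was at 281, 213 and 208 CPM in controls and at 213, 195 and 195 CPM after CTT (−0.22, SE 0.15, edgeR adjusted p = 0.476).

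**Figure D2:**
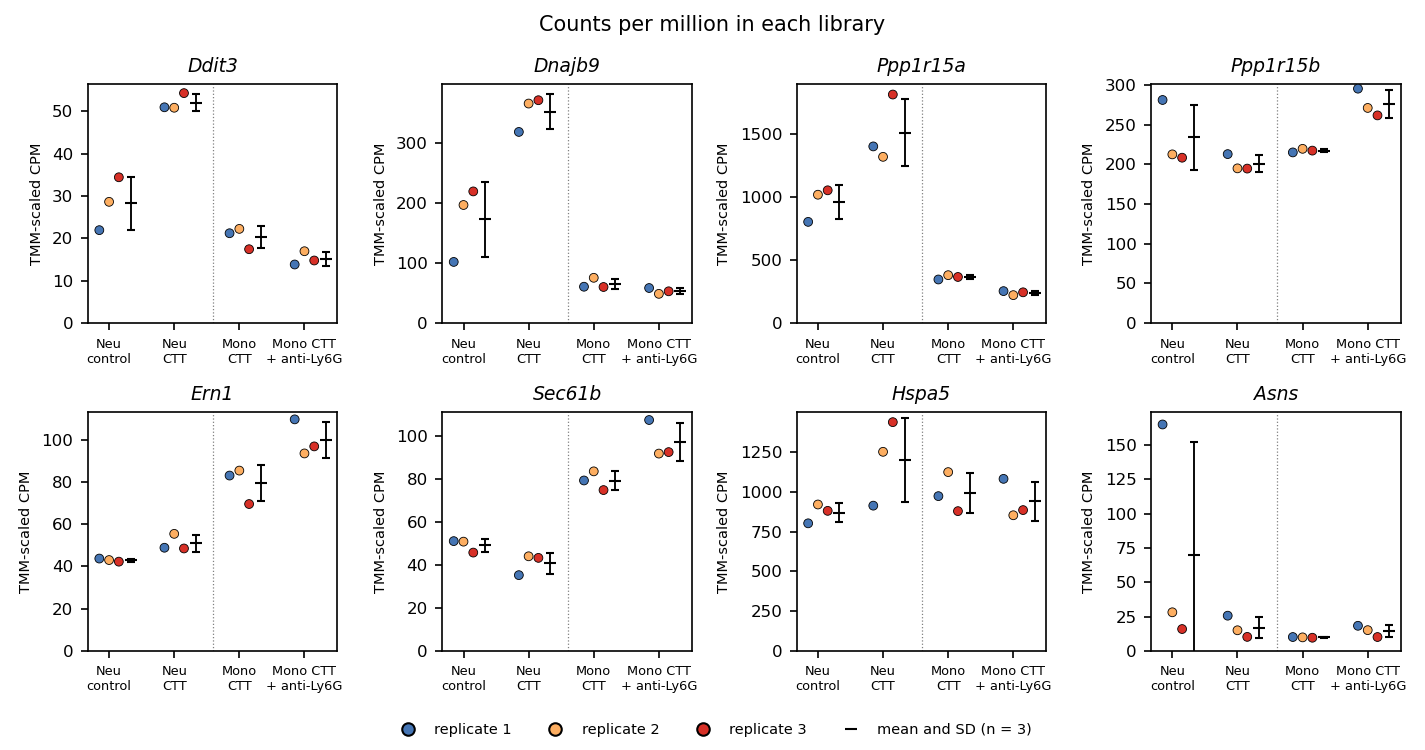
TMM-scaled CPM of 8 of the genes in each library (circles, colored by replicate number) with the mean and SD of each group of 3 (bars, the Asns control bar running below 0 and shown from 0), neutrophils left and monocytes right of the dotted line. Ddit3, Dnajb9 and Ppp1r15a are higher in all 3 CTT neutrophil libraries than in any control, Ppp1r15a is lower and Ppp1r15b higher in all 3 anti-Ly6G monocyte libraries, and Asns is far above the rest in control neutrophil replicate 1.

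The 3 sensors each had a higher CPM in every CTT neutrophil library than in any control, by small amounts. Ern1 was at 43.7, 43.0 and 42.3 CPM in controls and at 48.9, 55.5 and 48.5 CPM after CTT (log2 fold change 0.24, SE 0.12, edgeR adjusted p = 0.385). Eif2ak3 was at 61.9, 109 and 107 CPM and at 123, 110.1 and 127 CPM (0.37, SE 0.22, edgeR adjusted p = 0.438), so that its separation from controls 2 and 3 was narrow. In FPKM the Eif2ak3 groups overlapped: CTT replicate 2 (22.3 FPKM) lay below control replicates 2 (23.2 FPKM) and 3 (22.4 FPKM). Atf6 was at 139, 174 and 179.9 CPM and at 249.5, 198 and 204 CPM (0.40, SE 0.15, edgeR adjusted p = 0.345).

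Among the transcription factors, Atf4 was at 372, 339.9 and 349.7 CPM in controls and at 419.9, 380.4 and 432 CPM after CTT, without overlap (0.21, SE 0.11, edgeR adjusted p = 0.397). Xbp1 was at 171, 188 and 218 CPM and at 217, 272 and 253 CPM, so that the lowest CTT library fell just inside the control range (0.36, SE 0.14, edgeR adjusted p = 0.349).

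Among the luminal chaperones, Dnajb9 had the highest fold change and Hspa5 came next. Hspa5 was counted at 802, 920.0 and 880.0 CPM in controls and at 913, 1251 and 1438 CPM after CTT. CTT replicate 1 lay within the control range and replicates 2 and 3 above it (log2 fold change 0.47, SE 0.18, edgeR adjusted p = 0.347). The 9 members of this group had fold changes from −0.05 to 1.03 on the log2 scale with a median of 0.12. The 5 lectin chaperones and disulfide isomerases had a median of −0.02 (−0.23 to 0.51), the isomerase Pdia4 being the highest of them. Calr was at 1097, 1002 and 988 CPM in controls and at 743, 1096 and 1127 CPM after CTT, overlapping (−0.06, SE 0.18, edgeR adjusted p = 0.889). The 8 genes of translocation and degradation had a median of 0.13 (−0.27 to 0.58).

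CTT replicate 1 had the lowest count of its group for 23 of the 34 members (67.6%), where it was lowest for 38.2% of all tested genes. Among the members for which it was not the lowest were Atf6, Eif2ak3, Ddit3 and Ppp1r15a.

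Asns and Trib3, both targets of the ATF4 arm, had lower means after CTT and did not pass the test. Asns, asparagine synthetase, had the lowest fold change of the set in neutrophils, with 165, 28.1 and 15.9 CPM in controls and 25.6, 15 and 10.2 CPM after CTT. One library, control replicate 1, carried most of the difference (log2 fold change −2.04, SE 0.87, edgeR adjusted p = 0.357). Without it the value was −0.37 (adjusted p = 0.686). Trib3 was at 2.34, 0.469 and 0.345 CPM and at 0.536, 0.594 and 0.776 CPM (−0.73, SE 0.75, edgeR adjusted p = 0.646), and without that library its sign turned (0.65). Some other genes of amino acid supply and tRNA charging were also highest there. The alanyl-tRNA synthetase gene Aars was at 261 CPM in control replicate 1 and at 88.8 to 104 CPM in the other 5 libraries. Mthfd2, a mitochondrial folate enzyme, was at 122 CPM there against 24.3 to 40.7 CPM. Not all went this way: the amino acid transporter gene Slc38a2 was at 188 CPM there, below the other 5 libraries (240 to 426 CPM). The transporter gene Slc1a5 was at 174 CPM there against 163 to 181 CPM. Of all tested genes, 44.0% were highest of the controls in control replicate 1. The erythroid and cell cycle sums of that library are given above, and their part in these values was not tested.

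Of the other genes of the pathway, 0 of 18 further folding and oxidation genes and 0 of 35 further genes of translocation, degradation and Golgi recovery passed the edgeR test in neutrophils. At an unadjusted p under 0.05, 2 of the 18 were higher and 0 lower, and 2 of the 35 were higher and 1 lower; DESeq2 and limma called 0 in both lists. In the eIF2alpha and ATF4 list, 1 of 35 rose: Slc7a11, the cystine transporter xCT, at 6.87, 5.85 and 6.90 CPM in controls and 20.2, 22.6 and 35.1 CPM after CTT (log2 fold change 1.99, SE 0.24, edgeR adjusted p = 0.0299). At an unadjusted p under 0.05, 6 of these 35 were higher and 5 lower, against 8.28% and 5.74% of all tested genes. Every CTT library was above every control for 6 and below for 11, against 13.6% and 11% of all tested genes. The median log2 fold change of this list was −0.34. DESeq2 called 6 higher and 0 lower, against 3.56% and 0.836% of its tested genes. Without control replicate 1, edgeR called 5 higher and 0 lower, against 1.93% and 0.233% of all tested genes, with a median of −0.05. Transcripts outside the pathway also differed between these libraries. A list of 14 heat shock genes, mainly cytosolic but with the mitochondrial Hspd1 and Hspe1, was also summed. It gave 8176 to 9463 CPM in controls and 10127 to 12879 CPM after CTT, with 1 of 14 (Bag3) past the test. The 15 neutrophil markers summed to 4205 to 6169 CPM in controls and to 7881 to 12995 CPM after CTT, with 2 of 15 past the test. The 14 plasma cell markers were lowest in control replicate 1 (1735 CPM, against 2606 to 3626 CPM elsewhere). The part of these transcripts in the members' values was not tested.

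**Figure D3:**
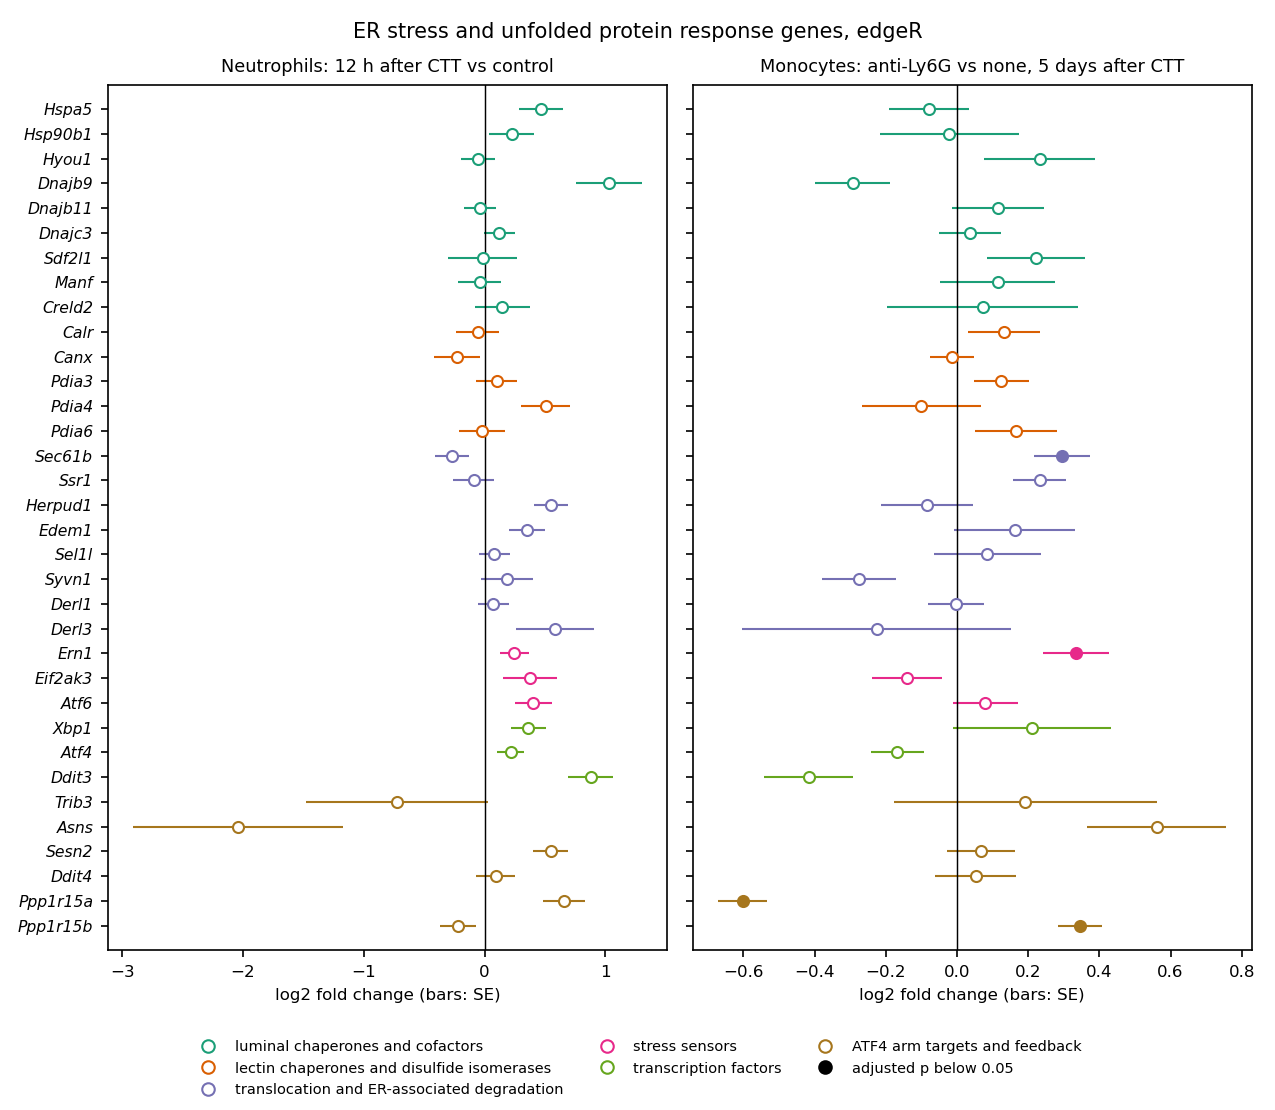
Log2 fold changes of the 34 genes (points, bars: SE, edgeR) colored by role, for neutrophils after CTT against control (left) and monocytes with anti-Ly6G against CTT alone (right); the panels have different horizontal scales, and filled points have an adjusted p below 0.05. No point is filled on the left, where Dnajb9 is highest (1.03) and Asns lowest (−2.04); on the right Ppp1r15a (−0.60) is filled below 0 and Ppp1r15b, Ern1 and Sec61b above 0 (0.30 to 0.35).

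In monocytes 5 days after CTT, the groups differed in both regulatory subunits of the eIF2alpha phosphatase, in opposite directions: Ppp1r15a fell and Ppp1r15b rose. Ern1 and Sec61b rose too, and the other 30 members did not pass the test. By edgeR, 3 members rose (8.82%) and 1 fell (2.94%), where 10.2% of all tested genes rose and 5.12% fell, so that both shares were below those of the whole table. At an unadjusted p under 0.05, 5 members were higher (14.7%, against 17.5% of all genes) and 4 lower (11.8%, against 13.4%). Every anti-Ly6G library was above every CTT library for 5 members (14.7%, against 20.6%) and below for 5 (14.7%, against 15.4%). The median log2 fold change was 0.08 over the members and 0.00 over all tested genes. The members' median varied between libraries of a group with an SD of 0.173 on the log2 scale.

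Ppp1r15a (Entrez 17872, chr7:45522917-45526268 on GRCm38.p6) was counted at 346, 379.7 and 366 CPM in the CTT libraries and at 253, 222 and 244 CPM with anti-Ly6G. The groups were well apart, with means of 364 ± 17.2 and 239.6 ± 16.4 CPM. The log2 fold change was −0.60 (SE 0.07, edgeR adjusted p = 0.000968), a 1.52-fold lower level. It passed in every fit that left out 1 library.

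Ppp1r15b (Entrez 108954, chr1:133131166-133139800) was counted at 215, 219.6 and 217 CPM after CTT alone and at 295, 271 and 262 CPM with anti-Ly6G. The 3 CTT libraries were almost equal, and all 3 anti-Ly6G libraries lay above them. The log2 fold change was 0.35 (SE 0.06, edgeR adjusted p = 0.0076), a 1.27-fold higher level, and it also passed whichever single library was left out.

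Ern1 (Entrez 78943, chr11:106397620-106487796) was at 83.1, 85.4 and 69.6 CPM after CTT alone and at 109.7, 93.6 and 96.9 CPM with anti-Ly6G, without overlap (log2 fold change 0.33, SE 0.09, edgeR adjusted p = 0.0439). Sec61b, a subunit of the channel through which new proteins enter the ER (Entrez 66212, chr4:47474661-47483233), was at 79.4, 83.7 and 75.0 CPM and at 108, 92.0 and 92.7 CPM (0.30, SE 0.08, edgeR adjusted p = 0.0371). Both calls were near the threshold and were lost in 5 of the 6 fits that left out 1 library, all but the one without CTT replicate 1, with adjusted p from 0.0541 to 0.154 for Ern1 and from 0.0540 to 0.146 for Sec61b. Ern1 also lost its call under DESeq2 size factors (adjusted p = 0.0534), library totals (0.0533) and upper-quartile scaling (0.0652), and Sec61b under upper-quartile scaling (0.0605). Both were lost in limma-trend on log2 of the FPKM plus 1 (0.0832 and 0.0593) or plus 0.1 (0.0784 and 0.0569).

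The other sensors and the transcription factors did not pass. Eif2ak3 was at 101, 132 and 117 CPM and at 102, 103 and 113 CPM (−0.14, SE 0.10, edgeR adjusted p = 0.37), and Atf6 at 163, 192 and 163 CPM and at 198, 164 and 186 CPM (0.08, SE 0.09, edgeR adjusted p = 0.601). Ddit3 was at 21.2, 22.3 and 17.4 CPM after CTT alone and at 13.8, 17.0 and 14.8 CPM with anti-Ly6G, lower without overlap (−0.42, SE 0.12, edgeR adjusted p = 0.055), and it passed by DESeq2 (adjusted p = 0.0170) and in edgeR under upper-quartile scaling (0.0357) or library totals (0.0434). Atf4 was at 225, 263 and 234 CPM and at 219, 202 and 223 CPM, also without overlap by a narrow margin (−0.17, SE 0.07, edgeR adjusted p = 0.166). Xbp1 was at 279, 433 and 252 CPM and at 483, 312 and 319.6 CPM, with 1 high library in each group (0.21, SE 0.22, edgeR adjusted p = 0.566).

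Hspa5 overlapped between the monocyte groups, at 973, 1124 and 878 CPM and at 1081, 852 and 885 CPM (−0.08, SE 0.11, edgeR adjusted p = 0.684). Dnajb9 was at 60.6, 75.5 and 60.2 CPM and at 58.5, 48.8 and 53.0 CPM (−0.29, SE 0.10, edgeR adjusted p = 0.0937). Asns had the highest fold change of the set, with 10.1, 9.80 and 9.54 CPM against 18.2, 15.1 and 10.1 CPM (0.56, SE 0.20, edgeR adjusted p = 0.0882), the lowest anti-Ly6G library being nearly level with the highest CTT library. Trib3 stayed near 1 CPM in all 6 libraries (0.778 to 1.64 CPM; 0.19, SE 0.37, edgeR adjusted p = 0.767). By role, the median log2 fold change was 0.07 for the luminal chaperones, 0.12 for lectin chaperones and isomerases and 0.04 for translocation and degradation, against the 0.00 of all tested genes.

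The monocyte groups also differed in their marker transcripts. The 15 neutrophil markers summed to 4966 to 7064 CPM after CTT alone and to 13937 to 19006 CPM with anti-Ly6G (13 of 15 rose). Of the 9 monocyte markers 7 rose and 1 fell (3408 to 5469 CPM and 4779 to 5740 CPM), and 9 of 16 cell cycle genes rose (1809 to 2041 CPM and 2252 to 2551 CPM). By contrast, 9 of 12 red pulp macrophage markers fell (10580 to 17625 CPM and 8236 to 9027 CPM) and 3 of 12 B cell markers fell. The same 14 heat shock genes summed to 6068 to 7012 CPM after CTT alone and to 3948 to 4525 CPM with anti-Ly6G, where 7 of 14 fell. Hspa1a, the inducible Hsp70, was at 1143, 741 and 802 CPM and at 141, 99.7 and 192 CPM. The part of these transcripts in the fall of Ppp1r15a and the rise of Ppp1r15b, Ern1 and Sec61b was not tested.

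Within each monocyte group, most ER folding genes were highest in the library with the most plasma cell transcripts. The 14 plasma cell markers summed to 3810, 7036 and 3768 CPM in the CTT libraries and to 5773, 3250 and 3414 CPM in the anti-Ly6G libraries, so that CTT replicate 2 and anti-Ly6G replicate 1 stood above the others of their group by a ratio of 1.86 and 1.73. Their defining gene Jchain, the joining chain of secreted antibody, was at 4332 CPM in the former against 2089 and 1877 CPM, and at 3598 CPM in the latter against 1695 and 1758 CPM. Sdc1, the plasma cell surface protein CD138, was at 83.1 CPM against 30.0 and 27.8 CPM, and at 65.3 CPM against 24.2 and 28.5 CPM. Jchain alone gave 4332 of the 7036 CPM of CTT replicate 2, so that the sums rest largely on this gene. The ratios of the 14 markers were uneven. In CTT replicate 2 all were above 1, from 1.05 for Cd38 to 3.21 for Fkbp11. In anti-Ly6G replicate 1, Cd38 (0.911), Pou2af1 (0.969) and Tnfrsf13b (0.991) lay below 1 and the others above.

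In these same 2 libraries, 28 of the 34 members (82.4%) were above the mean of the other 2 libraries of their group in both groups, where 2883 of 13294 tested genes (21.7%) were. The median ratio over the members was 1.19 in CTT monocytes and 1.17 in anti-Ly6G monocytes, against 0.997 and 1.00 over all tested genes. All 9 luminal chaperones and all 8 genes of translocation and degradation were above 1 in both groups. In the eIF2alpha and ATF4 arm 4 of 6 were, with medians of 1.01 and 1.10. Derl3, a degradation gene abundant in secretory cells, had the highest ratios (2.42 and 1.90), followed in both groups by the chaperone cofactor Creld2 (1.69 and 1.78) and Xbp1 (1.63 and 1.53). Hsp90b1 had ratios of 1.56 and 1.39. Ppp1r15a (1.07 and 1.09) and Ppp1r15b (1.02 and 1.11) differed little. These libraries were picked by the marker sums and each group had 1 of them, so no test was made. The plasma cell list itself holds ER folding genes (Txndc5 and Fkbp11).

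**Figure D4:**
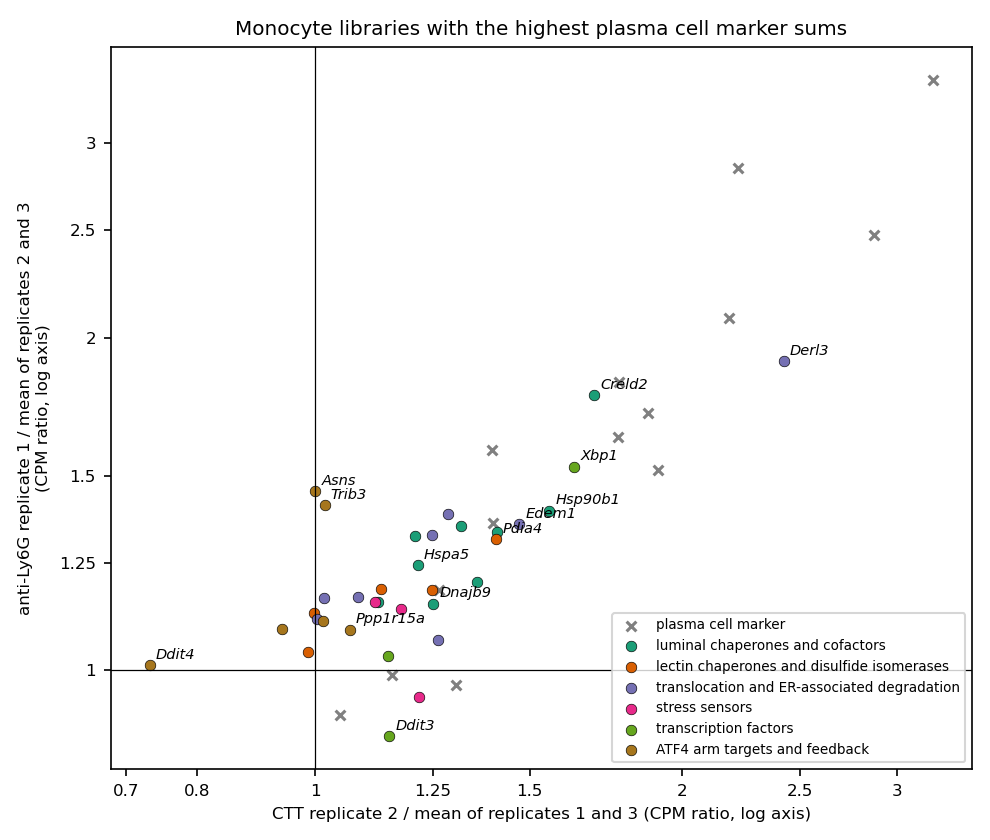
For each of the 34 genes (circles, colored by role) and 14 plasma cell markers (crosses), the CPM of CTT monocyte replicate 2 divided by the mean of replicates 1 and 3 (horizontal, log axis) against the CPM of anti-Ly6G monocyte replicate 1 divided by the mean of replicates 2 and 3 (vertical, log axis); lines mark a ratio of 1. Of the members, 28 lie in the upper right corner, above 1 on both axes, Derl3, Creld2 and Xbp1 farthest out, while Ddit4 and Ddit3 lie on different sides.

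Without both of these libraries, edgeR called 0 members higher and 1 lower with anti-Ly6G, where 3.57% of 13407 tested genes rose and 1.16% fell. At an unadjusted p under 0.05, 6 members were then higher (17.6%, against 11.9% of all genes). Members lower at that threshold were not counted in this fit, so this is 1 direction only. Ppp1r15a kept its call (log2 fold change −0.62, adjusted p = 0.0164). Ppp1r15b had a value of 0.30 (adjusted p = 0.0736), Ern1 0.32 (adjusted p = 0.129) and Sec61b 0.25 (adjusted p = 0.109), so that these 3 calls were lost with 2 libraries left in each group while their direction held.

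Of the other pathway genes in monocytes, 4 of 18 further folding and oxidation genes rose by edgeR, where 10.2% of all tested genes rose. They were Ero1a, the oxidase that recharges disulfide isomerases (log2 fold change 0.45, SE 0.07, edgeR adjusted p = 0.0042), the isomerase P4hb (0.44, adjusted p = 0.0310), the reductase Dnajc10 (0.30, adjusted p = 0.0130) and Uggt1, which marks misfolded glycoproteins for another round of folding (0.28, adjusted p = 0.0160). Of the 35 genes of translocation, degradation and Golgi recovery 0 passed by edgeR, with 3 higher and 1 lower at an unadjusted p under 0.05 and 1 called in each direction by DESeq2. In the eIF2alpha and ATF4 list 5 of 34 rose and 2 fell, against 10.2% and 5.12% of all tested genes. Cebpb rose from 359 ± 32.5 to 564 ± 50.7 CPM (log2 fold change 0.65, SE 0.09, edgeR adjusted p = 0.0021). The serine synthesis gene Psat1 (0.50), Ndrg1 (0.89), Mthfd2 (0.43) and Nupr1 (1.01) rose as well. Atf3, a transcription factor induced by ATF4, fell from 95.5 ± 21.6 to 54.0 ± 5.04 CPM (−0.82, SE 0.15, edgeR adjusted p = 0.0070), as Ppp1r15a did, and the eIF2alpha kinase gene Eif2ak4 fell by 0.28 on the log2 scale. In the same list, genes thus passed the test in both directions. Without the 2 plasma-rich libraries, 0 of the 18 folding genes passed, and 3 rose and 1 fell in the eIF2alpha and ATF4 list. Of all tested genes, 3.57% rose and 1.16% fell in that fit.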

How the data were processed

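Total RNA of selected mouse spleen cells was sequenced in 12 libraries, 3 in each of 4 groups, which the titles name. For each cell type the authors deposited a table of raw gene counts (whole numbers). The submitters' processing notes name HISAT2, HTSeq and mm10; the sources used here give no versions, annotation or strand setting, so reads of overlapping genes may have been counted for either. The deposited FPKM values equal counts per gene length and library total, and were used for levels between genes.

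Each cell type was fitted separately with edgeR 4.0.16 (R 4.3.3): filterByExpr, TMM, the two-sided quasi-likelihood F test and Benjamini-Hochberg adjustment over all tested genes, at 0.05. SE is the absolute log2 fold change over the square root of F. CPM are TMM-scaled. Alternatives used DESeq2 1.42.0, limma 3.58.1, other scalings and filters, the replicate block and left-out libraries. The fit was tested on simulated data with 200 changed genes. With at least 30942849 counts a library, counting error is small except near 1 CPM. No columns were left out (0).

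The members and lists were chosen with earlier results of these data known. By rule, values of every library are given for members past the test, the sensors, the transcription factors, Hspa5, Trib3 and the highest and lowest levels and fold changes, and up to 5 other pathway genes per list and direction. Herpud1, Sesn2, Aars, Slc38a2, Slc1a5, Derl3, Creld2, Hsp90b1, Hspa1a, Cd38, Pou2af1, Tnfrsf13b and Fkbp11 were named after their values were seen. Promoters and coordinates come from RefSeq, GRCm38.p6, the assembly of mm10.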

Additional observations from a re-analysis of the deposited data

How the results depend on the processing

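In neutrophils, DESeq2 called 5 members and 456 genes higher and 107 genes lower; limma-trend on log2(FPKM + 1) called 44 genes higher and 1 lower, and on log2(FPKM + 0.1) 1 lower. In monocytes, members that rose numbered 1 and members that fell 2 under upper-quartile scaling (1030 genes fell), 2 fell under library totals and under DESeq2 (1204 genes fell), and 1 rose under limma-trend with either pseudocount. Leaving out the 2 plasma-rich monocyte libraries, an alternative chosen after seeing the data, left 0 members that rose, and 479 and 155 genes that rose and fell.

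Whether replicate numbers pair the samples could not be decided from 3 libraries per group. Correlations of same-numbered deviations were 0.248, 0.000 and 0.234 in neutrophils and 0.167, −0.056 and 0.222 in monocytes. In both cell types replicates 1 and 3 correlated best with their own number, and replicate 2 did not. The fit with a replicate block called 0 members in neutrophils, where 4 genes rose and 1 fell; in monocytes 4 members rose (Sec61b, Ssr1, Ern1 and Ppp1r15b), 2 fell (Ddit3 and Ppp1r15a) and 1043 genes fell. The block changed no other call of a member.

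Over the fits that leave out 1 library, neutrophils gave 0 to 2 members and 0 to 257 genes that rose, 0 to 31 genes that fell and a members' median from 0.067 to 0.25; control replicate 1 gave the highest counts. Monocytes gave 1 to 4 members and 706 to 1687 genes that rose, 1 to 4 members and 177 to 1168 genes that fell, and a members' median from −0.03 to 0.19; the members' counts were highest without CTT replicate 1. Every fit covered the whole table, but not all 34 members were read out singly. Among those that were, the sign turned for uncalled ones: in neutrophils Ssr1 (−0.20 to 0.11), Syvn1 (−0.013 to 0.40), Trib3 (−1.14 to 0.65) and Calr (−0.16 to 0.12), and in monocytes Hspa5 (−0.19 to 0.014), Pdia4 (−0.24 to 0.077, and 0.0082 without anti-Ly6G replicate 2), Herpud1 (−0.23 to 0.022) and Xbp1 (−0.023 to 0.48); Sesn2 (0.011 to 0.162) turned (−0.0068) without both plasma-rich libraries. The cause was not tested. Ppp1r15a kept its call in monocytes in all alternatives, with log2 fold changes from −0.65 to −0.55. Trib3 had as few as 12 counts in a library, which limits its values, and gave no value in neutrophils under the minimum of 1 CPM in 3 libraries.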
